A study of Homo sapiens with 12 samples.

Results

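Small nucleolar RNA (snoRNA) host genes were examined in total RNA of 3 ovarian cell lines. The set was made of every gene whose GENCODE symbol is SNHG followed by a number, with GAS5, ZFAS1 and EPB41L4A-AS1 added, which gave 31 genes of the 61533 gene IDs in the files. All 31 are annotated as long non-coding RNA (lncRNA) genes. PEO-4 is an ovarian carcinoma line labelled as cystadenocarcinoma, SKOV-3 is one labelled as serous cystadenocarcinoma, and T1074 is a line of ovarian epithelial cells immortalized with SV40. The study itself describes PEO-4 as high-grade serous and SKOV-3 as clear cell carcinoma, which differs from these labels. Each line was sequenced in 4 libraries all with a wild-type (WT) genotype label and no treatment named, and each line was grown in a medium of its own. One line stands for each condition, so a difference between lines cannot be told apart from a difference between donors, media or immortalization. The labels name aliquots of harvested cells as replicates and do not say that they came from separate cultures, so the p-values cover no more than the variation among these libraries, and that may be technical.

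A snoRNA host gene carries the snoRNAs in its introns: after splicing, the debranched intron is trimmed to the mature snoRNA, while the joined exons form a spliced transcript. Box C/D snoRNAs (SNORD) guide 2′-O-methylation and box H/ACA snoRNAs (SNORA) guide pseudouridylation of ribosomal RNA, and scaRNAs (SCARNA) do the same for spliceosomal RNAs in Cajal bodies. The spliced exons of many non-coding hosts hold only short reading frames and are degraded in the cytoplasm by nonsense-mediated decay, and several hosts, GAS5 the best known, start with a run of pyrimidines like the terminal oligopyrimidine (TOP) mRNAs of ribosomal proteins and translation factors. The level of a spliced host transcript therefore need not follow that of its snoRNA.

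The bases around the start sites of 11 host genes are shown, among them the most abundant members and some of those with the largest differences. SNHG12 and SNHG19, at ranks 16 and 13 by mean TPM, are shown as well. RefSeq promoters (GRCh38.p14, 250 bases before the start site and 50 from it on) matched 27 of the 31 genes by symbol. Each line below gives 20 bases before and 30 bases from the start on, with the longest run of C and T found between 10 bases before and 20 bases after the start in capitals.
SNHG5 (chr6:85678704-85678753, - strand): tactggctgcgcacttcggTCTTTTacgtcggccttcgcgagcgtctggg
ZFAS1 (chr20:49278622-49278671, + strand): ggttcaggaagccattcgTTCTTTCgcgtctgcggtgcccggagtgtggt
SNHG19 (chr16:2155329-2155378, - strand): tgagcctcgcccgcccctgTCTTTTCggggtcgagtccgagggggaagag
SNHG32 (chr6:31834896-31834945, + strand): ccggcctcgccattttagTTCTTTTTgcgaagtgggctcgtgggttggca
SNHG12 (chr1:28581844-28581893, - strand): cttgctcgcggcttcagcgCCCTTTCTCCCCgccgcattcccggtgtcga
SNHG4 (chr5:139274081-139274130, + strand): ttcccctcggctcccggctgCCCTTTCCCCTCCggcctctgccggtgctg
SNHG16 (chr17:76557744-76557793, + strand): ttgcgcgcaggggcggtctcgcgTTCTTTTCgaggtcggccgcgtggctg
SNHG8 (chr4:118278742-118278791, + strand): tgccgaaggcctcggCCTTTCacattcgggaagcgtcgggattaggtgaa
SNHG29 (chr17:16438967-16439016, + strand): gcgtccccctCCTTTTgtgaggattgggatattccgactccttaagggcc
GAS5 (chr1:173869016-173869065, - strand): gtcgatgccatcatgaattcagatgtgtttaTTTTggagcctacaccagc
SNHG20 (chr17:77088623-77088672, + strand): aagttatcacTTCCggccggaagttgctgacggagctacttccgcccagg
In SNHG5, ZFAS1, SNHG19, SNHG32, SNHG12 and SNHG8 the run spanned the annotated start itself, in SNHG4 it began at the first transcribed base, and in SNHG20 and GAS5 it was 4 bases long and lay away from the start. SNHG18 and SNHG26, which are not shown, had runs of 21 and 10 bases and were lower in PEO-4 than in T1074. Their log2 fold changes were −0.78 and −0.90. Whether a run went with the level in PEO-4 was not tested. A run of at least 5 bases was found in 19 of the 27 host promoters (70.4%) and in 48.5% of all 27305 promoters, and a run of at least 8 bases in 6 (22.2%) against 12.6%. The palindromic motif CACGTG, which reads the same on both strands, was found in the 300 bases of 2 host promoters, SNHG7 and SNHG30, which is 7.4% of them and the same share as in all promoters. These are matches of letters to annotated starts, which may differ from the starts used in these cells, and the RefSeq start of GAS5 lies outside the GENCODE bounds given below.

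The libraries held 38690954 to 47148161 expected counts for PEO-4, 47340136 to 55739060 for SKOV-3 and 19780836 to 38583368 for T1074. Expected counts are RSEM estimates of fragments per transcript, summed here over the transcripts of a gene. The shallowest library, T1074 replicate 1, also had 19.4% of its counts in 3 lncRNA genes of chromosome 21, where no other library exceeded 6.11%. Levels below are counts per 1000000 counts of a library, with TMM factors (CPM), used to compare lines. TPM, which divides by effective transcript length, is used only to order the host genes among themselves. Of the epithelial marker list, 8 of 8 genes reached a mean of 1 CPM in PEO-4, 7 in SKOV-3 and 5 in T1074. The 3 below that level in T1074, CDH1, EPCAM and PAX8, averaged 0.354, 0.0964 and 0.0951 CPM there, so these 3 were nearly absent from it. The summed epithelial markers were 2651 to 3624 CPM in PEO-4, 1023 to 1936 CPM in SKOV-3 and 733 to 1979 CPM in T1074. The summed stromal markers were 70.3 to 111 CPM in PEO-4, 9.38 to 43.3 CPM in SKOV-3 and 279 to 1641 CPM in T1074, and their part in the results below was not tested. Fewer cells with a transcript and less RNA per cell cannot be told apart in these bulk libraries.

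The host genes were on the whole most abundant in PEO-4. Their summed level was 3286 ± 561 CPM in PEO-4, 1031 ± 86.8 CPM in SKOV-3 and 1160 ± 140.0 CPM in T1074 (SD, n = 4 each). The lowest PEO-4 library had 2532 CPM and the highest library of the other lines 1354 CPM, so the PEO-4 libraries did not overlap with the others. As a share of all counts they took 0.256% to 0.367% in the PEO-4 libraries, 0.0859% to 0.105% in the SKOV-3 libraries and 0.108% to 0.137% in the T1074 libraries. The highest mean of a tested host gene fell in PEO-4 for 21 genes, in SKOV-3 for 2 and in T1074 for 7, while the lowest mean fell in SKOV-3 for 18.

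Of the 31 host genes, 30 passed the filter on low counts and were tested. SNHG27 was not: it was at 0 in all PEO-4 libraries, at most 0.0780 CPM in SKOV-3 and at most 0.0249 CPM in T1074. The test (edgeR quasi-likelihood F-test with Benjamini-Hochberg adjustment over 19898 genes, adjusted p under 0.05) found a difference among the 3 lines for 28 of the 30, where 90.4% of all tested genes differed. SNHG1 and SNHG21 did not pass. The lines thus differed in most of their genes, and the direction of the host genes is read against shares of all genes below.

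**Figure D1:**
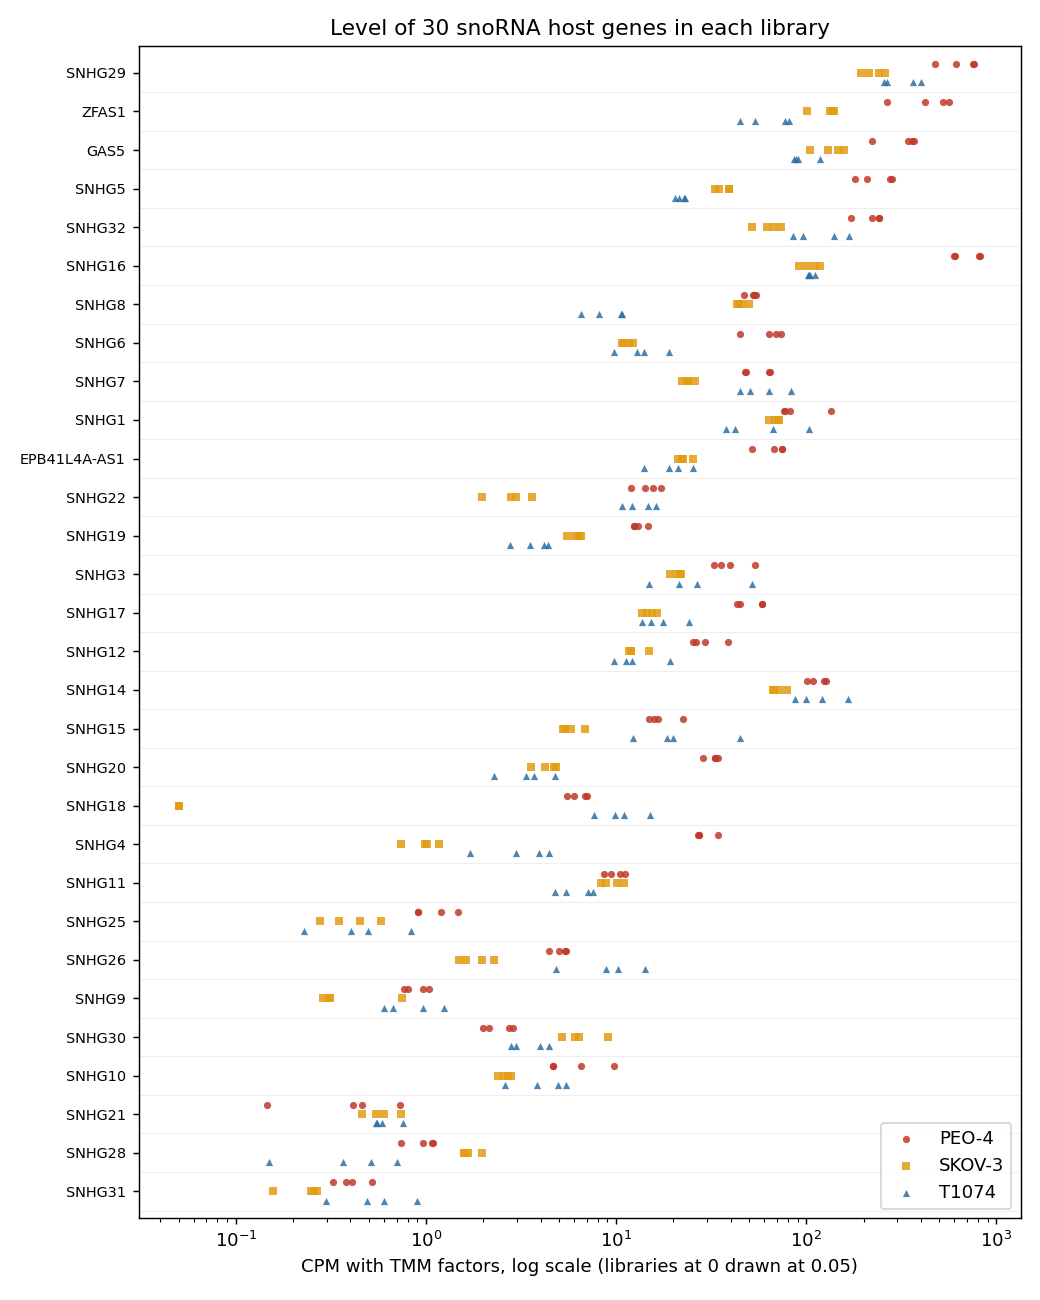
Level of the 30 tested snoRNA host genes in each library, in CPM with TMM factors on a log axis, ordered by mean TPM with the highest at the top; each mark is 1 library (4 each of PEO-4, SKOV-3 and T1074). All PEO-4 libraries lie to the right of the 8 others for 14 genes, a separation whose share over all genes was not counted. SNHG8 and SNHG11 overlap between PEO-4 and SKOV-3, and SNHG18 is at 0 in SKOV-3.

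Against T1074, 18 host genes were higher in PEO-4, 3 were lower and 9 did not pass. Among all tested genes 74.1% differed, 36.3% being higher and 37.8% lower, and among the 3333 tested lncRNA genes 44.7% were higher and 21.4% lower. The median log2 fold change was 0.93 over the host genes, −0.01 over all genes and 0.55 over lncRNA genes. The difference was at least 2-fold in 15 of the 18, where 25.2% of all genes were higher by that rule. In 17 host genes every PEO-4 library was above every T1074 library, against 33.2% of all genes, and in 1 every PEO-4 library was below, against 33.4%.

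Against SKOV-3, 24 host genes were higher in PEO-4, 2 were lower and 4 did not pass, where 75.2% of all genes differed, 38.5% being higher and 36.7% lower, and 50.2% of lncRNA genes were higher and 21.7% lower. The difference was at least 2-fold in 21 of the 24, against 27.3% of all genes. The median log2 fold change was 1.36 over the host genes, 0.05 over all genes and 0.77 over lncRNA genes. The 2 lower ones were SNHG28 and SNHG30. Every PEO-4 library was above every SKOV-3 library for 25 host genes, against 38.4% of all genes, and below for 2, against 37.2%.

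Between SKOV-3 and T1074 the host genes went both ways: 8 were higher in SKOV-3, 12 lower and 10 did not pass, where 67.8% of all genes differed, 33.3% being higher and 34.5% lower, and 25.5% of lncRNA genes were higher and 30.8% lower. Of the 8, 2 were at least 2-fold higher, SNHG8 and SNHG28, against 19.6% of all genes. The libraries did not overlap for 7 host genes that were higher and 9 that were lower, against 30.5% and 29.8% of all genes. The median log2 fold change was −0.24 over the host genes and −0.03 over all genes. The 3 comparisons share their libraries, so they are not independent of each other. In both comparisons at once, 15 host genes were higher in PEO-4 than in SKOV-3 and than in T1074, where 24.7% of all genes were: SNHG4, SNHG5, SNHG6, SNHG10, SNHG12, SNHG16, SNHG17, SNHG19, SNHG20, SNHG25, SNHG29, SNHG32, EPB41L4A-AS1, GAS5 and ZFAS1. For 14 of these every PEO-4 library was above all 8 other libraries, the exception being SNHG10. The share of all genes with that separation was not counted, so the 14 are a description only. Leaving out T1074 replicate 1 left 18 higher and 3 lower in PEO-4 against T1074, and leaving out PEO-4 replicate 1 left 19 and 2.

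**Figure D2:**
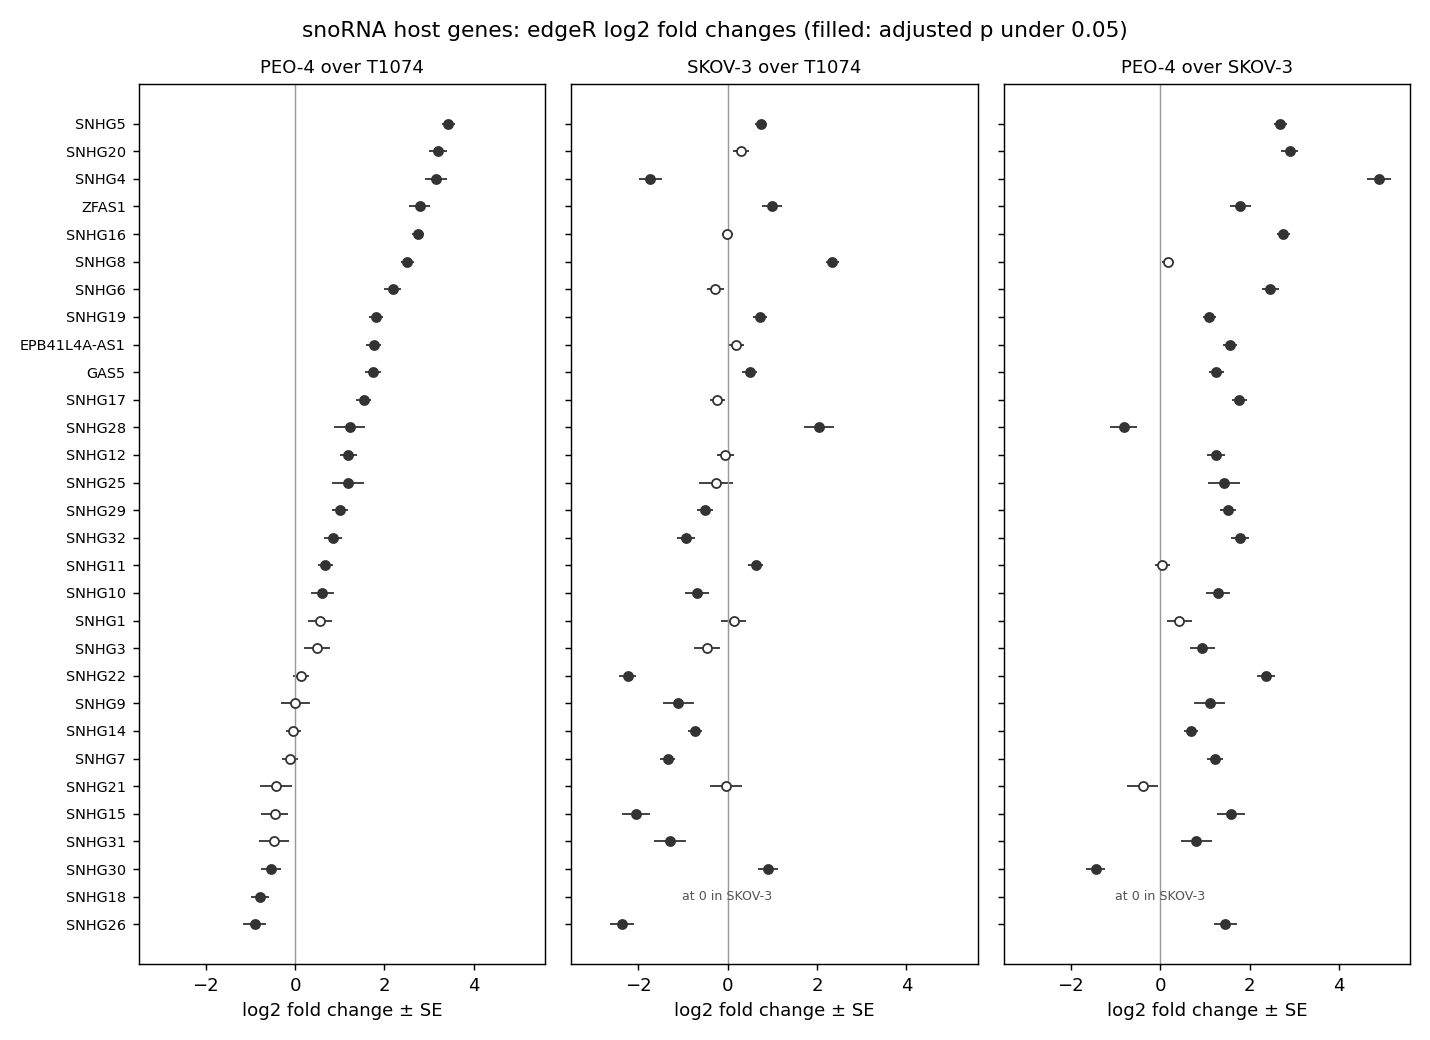
Log2 fold changes from edgeR with standard errors for the 30 tested host genes in PEO-4 over T1074, SKOV-3 over T1074 and PEO-4 over SKOV-3, ordered by PEO-4 over T1074; filled points passed an adjusted p of 0.05. Points lie mostly right of 0 in the panels of PEO-4 and on both sides in that of SKOV-3 over T1074, and SNHG18 has no fold against SKOV-3, where it was at 0.

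Among the most abundant hosts, 5 genes made up 69.0% of the summed mean TPM of the set: SNHG29, ZFAS1, GAS5, SNHG5 and SNHG32. SNHG29, on chromosome 17 (hg38, 16438767 to 16480249, + strand), carries SNORD49A, SNORD49B and SNORD65 and had the highest mean TPM of all hosts (168). It had 764, 477, 609 and 749 CPM in the PEO-4 libraries, 194, 242, 213 and 258 CPM in SKOV-3, and 400.0, 366, 258 and 265 CPM in T1074. PEO-4 was above both other lines without overlap, while the highest SKOV-3 library and the lowest T1074 library met at 258 CPM. The log2 fold change was 1.01 ± 0.18 (SE) in PEO-4 over T1074 (edgeR adjusted p = 0.000145), 1.52 ± 0.18 over SKOV-3 (adjusted p = 3.18e-06) and −0.51 ± 0.18 in SKOV-3 over T1074 (adjusted p = 0.0219). The last call was lost in edgeR without T1074 replicate 1 (−0.38, adjusted p = 0.0828), T1074 replicate 2, SKOV-3 replicate 1 or SKOV-3 replicate 3.

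ZFAS1 lies antisense to the start of ZNFX1 on chromosome 20 (49278178 to 49299600, + strand) and carries the SNORD12 family. Its levels were 525, 267, 418 and 561 CPM in PEO-4, 100.3, 139.6, 133 and 139 CPM in SKOV-3, and 81.4, 76.9, 54.0 and 44.8 CPM in T1074. No 2 lines overlapped, and the order was PEO-4, SKOV-3, T1074. Log2 fold changes were 2.79 ± 0.24 in PEO-4 over T1074 (edgeR adjusted p = 1.16e-07), 0.99 ± 0.23 in SKOV-3 over T1074 (adjusted p = 0.00156) and 1.79 ± 0.23 in PEO-4 over SKOV-3 (adjusted p = 7.60e-06).

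GAS5 (chromosome 1, 173858559 to 173868882, − strand), named for its rise in growth-arrested cells and a long-studied target of nonsense-mediated decay, is a host of box C/D snoRNAs, although none of the snoRNA genes of the annotation used here lies within it. It had 342, 220.3, 359.5 and 367 CPM in PEO-4, 104, 147, 130.3 and 157 CPM in SKOV-3, and 118, 88.0, 90.5 and 86.1 CPM in T1074. PEO-4 stood clear of both lines, and SKOV-3 overlapped with T1074 through T1074 replicate 1. The log2 fold change was 1.75 ± 0.18 in PEO-4 over T1074 (edgeR adjusted p = 5.68e-07) and 1.26 ± 0.18 over SKOV-3 (adjusted p = 1.43e-05). In SKOV-3 over T1074 it was 0.49 ± 0.17 (adjusted p = 0.0216), a call that was lost without SKOV-3 replicate 4 (0.42, adjusted p = 0.0610), SKOV-3 replicate 2 or T1074 replicate 2, and with scaling by library size alone (0.30, adjusted p = 0.131).

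SNHG5 (chromosome 6, 85650491 to 85678932, − strand), the host of SNORD50B, had the largest log2 fold change of the 30 in PEO-4 over T1074. It had 274, 181, 209 and 283 CPM in PEO-4, 33.3, 39.4, 34.7 and 39.4 CPM in SKOV-3, and 22.8, 23.0, 21.5 and 20.4 CPM in T1074. The 3 lines did not overlap. Log2 fold changes were 3.43 ± 0.15 in PEO-4 over T1074 (edgeR adjusted p = 8.22e-11), 0.74 ± 0.14 in SKOV-3 over T1074 (adjusted p = 0.000233) and 2.69 ± 0.14 in PEO-4 over SKOV-3 (adjusted p = 6.57e-10).

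SNHG32 (chromosome 6, 31834608 to 31839766, + strand) carries SNORD48 and SNORD52 in the major histocompatibility complex region. It had 241, 172, 222 and 241 CPM in PEO-4, 52.1, 62.3, 67.6 and 73.5 CPM in SKOV-3, and 167, 139, 95.7 and 85.6 CPM in T1074. The lines were ordered PEO-4, T1074, SKOV-3 with no overlap. Its log2 fold change was 0.85 ± 0.20 in PEO-4 over T1074 (edgeR adjusted p = 0.00127), −0.93 ± 0.20 in SKOV-3 over T1074 (adjusted p = 0.000716) and 1.78 ± 0.20 in PEO-4 over SKOV-3 (adjusted p = 1.61e-06).

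SNHG16 and SNHG6 were high in PEO-4 and did not pass between the other lines. SNHG16 (chromosome 17, 76557727 to 76670985, + strand), host of SNORD1A, SNORD1B and SNORD1C, had 823, 602, 599 and 811 CPM in PEO-4, 111, 118, 91.1 and 100.3 CPM in SKOV-3, and 103, 104, 112 and 102 CPM in T1074. The lowest PEO-4 library, at 599 CPM, was far above the highest of the 8 others, at 118 CPM. The log2 fold change was 2.75 ± 0.14 over T1074 (edgeR adjusted p = 3.46e-10) and 2.76 ± 0.14 over SKOV-3 (adjusted p = 3.53e-10), and it was −0.00 ± 0.13 in SKOV-3 over T1074 (adjusted p = 0.980). SNHG6, on chromosome 8 and host of SNORD87, had 69.6, 44.9, 63.9 and 73.4 CPM in PEO-4, 10.7, 11.01, 12.2 and 11.7 CPM in SKOV-3, and 19.1, 12.9, 9.70 and 14.0 CPM in T1074. SKOV-3 lay within the T1074 range, and PEO-4 did not overlap with either. Its log2 fold change was 2.19 ± 0.19 in PEO-4 over T1074 (edgeR adjusted p = 1.14e-07) and 2.46 ± 0.19 over SKOV-3 (adjusted p = 3.46e-08).

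SNHG8 differed from these in being high in both carcinoma lines. This host of SNORA24 (chromosome 4, 118278703 to 118285316, + strand) had 54.5, 46.8, 52.5 and 52.8 CPM in PEO-4, 43.3, 44.2, 46.1 and 49.9 CPM in SKOV-3, and 6.52, 8.11, 10.6 and 10.7 CPM in T1074. PEO-4 and SKOV-3 overlapped, and both stood above T1074. Log2 fold changes over T1074 were 2.51 ± 0.14 in PEO-4 (edgeR adjusted p = 1.39e-09) and 2.34 ± 0.14 in SKOV-3 (adjusted p = 4.03e-09), with 0.17 ± 0.13 in PEO-4 over SKOV-3 (adjusted p = 0.260). SNHG11, which carries SNORA60 and SNORA71E, was also higher in both carcinoma lines than in T1074 and did not pass between them, with 9.92 ± 1.13 CPM in PEO-4, 9.59 ± 1.20 CPM in SKOV-3 and 6.22 ± 1.35 CPM in T1074 (SD, n = 4 each), although its call in SKOV-3 over T1074 was lost when libraries were scaled by their size alone or by protein-coding genes. The rare SNHG28 was one of the 2 hosts with their highest mean in SKOV-3, with 0.965 ± 0.162 CPM in PEO-4, 1.70 ± 0.183 CPM in SKOV-3 and 0.433 ± 0.234 CPM in T1074.

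SNHG20 and SNHG4 were less abundant hosts with large differences. SNHG20 (chromosome 17, 77086716 to 77099902, + strand), host of SCARNA16, had 34.4, 28.6, 33.3 and 32.9 CPM in PEO-4, 4.23, 4.69, 3.58 and 4.84 CPM in SKOV-3, and 3.36, 2.27, 4.75 and 3.68 CPM in T1074. Its log2 fold change was 3.20 ± 0.19 in PEO-4 over T1074 (edgeR adjusted p = 2.20e-09) and 2.90 ± 0.19 over SKOV-3 (adjusted p = 4.70e-09), and SKOV-3 overlapped with T1074 (0.30 ± 0.19, adjusted p = 0.165). SNHG4 (chromosome 5, 139274102 to 139284899, + strand), host of SNORA74A, had 27.3, 27.3, 34.4 and 27.1 CPM in PEO-4, 1.01, 1.17, 0.985 and 0.738 CPM in SKOV-3, and 2.96, 1.70, 4.41 and 3.93 CPM in T1074. The 3 lines were apart, with SKOV-3 lowest. Log2 fold changes were 3.16 ± 0.24 in PEO-4 over T1074 (edgeR adjusted p = 2.81e-08), −1.73 ± 0.26 in SKOV-3 over T1074 (adjusted p = 3.15e-05) and 4.89 ± 0.27 in PEO-4 over SKOV-3 (adjusted p = 8.44e-10). MATR3, a nuclear matrix protein gene that overlaps SNHG4 on the same strand, averaged 68.5 CPM in PEO-4, 25.4 CPM in SKOV-3 and 11.04 CPM in T1074, and its part in the SNHG4 values was not tested.

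Of the other hosts higher in PEO-4 than in both lines, SNHG19, the host of SNORD60, averaged 13.1 ± 1.06 CPM in PEO-4, 6.13 ± 0.454 CPM in SKOV-3 and 3.71 ± 0.723 CPM in T1074 (SD, n = 4 each). EPB41L4A-AS1, antisense to EPB41L4A and host of SNORA13, averaged 67.0 ± 10.6, 22.7 ± 1.78 and 19.9 ± 4.66 CPM in PEO-4, SKOV-3 and T1074. SNHG17, host of the SNORA71 family, averaged 51.3 ± 8.38, 15.0 ± 1.22 and 17.7 ± 4.57 CPM in the same order. The log2 fold changes of these 3 genes in PEO-4 over T1074 were 1.82, 1.76 and 1.54. SNHG12, host of SNORA16A, SNORA44, SNORA61 and SNORD99, averaged 29.9 ± 6.08 CPM in PEO-4, 12.6 ± 1.45 CPM in SKOV-3 and 13.1 ± 4.15 CPM in T1074. SNHG25, host of SNORD104 and SNORA50C, and SNHG10, host of SCARNA13, were rare, at 1.12 ± 0.271 and 6.39 ± 2.40 CPM in PEO-4, 0.413 ± 0.129 and 2.61 ± 0.177 CPM in SKOV-3, and 0.490 ± 0.254 and 4.199 ± 1.26 CPM in T1074. SNHG10 passed narrowly in PEO-4 over T1074 (log2 fold change 0.61 ± 0.26, edgeR adjusted p = 0.0466), overlapped with T1074, and lost its call under several settings, among them without PEO-4 replicate 3 (0.45, adjusted p = 0.114), without T1074 replicate 2 (0.42, adjusted p = 0.143) or replicate 3, and with any 1 of the SKOV-3 libraries left out. Its call in SKOV-3 over T1074 (−0.68 ± 0.27, adjusted p = 0.0360) was lost in 12 of 21 alternatives.

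In all, 12 hosts were lower in SKOV-3 than in both other lines, where 18.4% of all tested genes were. Of these, 4 were also higher in PEO-4 than in T1074, namely SNHG4, SNHG10, SNHG29 and SNHG32, and 8 were not: SNHG7, SNHG9, SNHG14, SNHG15, SNHG18, SNHG22, SNHG26 and SNHG31. SNHG7 (chromosome 9, 136721366 to 136728184, − strand), host of SNORA17A and SNORA17B, had 63.3, 47.8, 48.3 and 64.1 CPM in PEO-4, 26.0, 23.7, 22.1 and 23.5 CPM in SKOV-3, and 83.1, 50.3, 63.9 and 44.9 CPM in T1074. PEO-4 and T1074 overlapped and SKOV-3 was below both. Its log2 fold change was −1.34 ± 0.17 in SKOV-3 over T1074 (edgeR adjusted p = 8.82e-06) and 1.23 ± 0.17 in PEO-4 over SKOV-3 (adjusted p = 1.60e-05), with −0.11 ± 0.17 in PEO-4 over T1074 (adjusted p = 0.558).

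SNHG18 (chromosome 5, 9546170 to 9550725, + strand), host of SNORD123, had no count in any SKOV-3 library. It had 6.003, 6.85, 7.01 and 5.54 CPM in PEO-4 and 9.83, 10.97, 7.67 and 15.1 CPM in T1074. With a floor of 3 counts per library, which averages 0.0605 CPM over the 4 SKOV-3 libraries, SNHG18 was at least 180.1-fold lower in SKOV-3 than in T1074, and PEO-4 was at least 105.03-fold above SKOV-3. PEO-4 was also below T1074, with a log2 fold change of −0.78 ± 0.21 (edgeR adjusted p = 0.00507) that did not pass with length-scaled counts (−0.44, adjusted p = 0.101).

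SNHG26 (chromosome 7, 22854126 to 22872952, + strand), host of SNORD93, had the largest fall of the tested hosts in PEO-4 over T1074. It had 5.48, 4.44, 5.37 and 5.00 CPM in PEO-4, 2.28, 1.499, 1.97 and 1.62 CPM in SKOV-3, and 10.2, 4.83, 14.1 and 8.85 CPM in T1074. SKOV-3 was below the other lines, and PEO-4 overlapped with T1074 through T1074 replicate 2. Log2 fold changes were −0.90 ± 0.26 in PEO-4 over T1074 (edgeR adjusted p = 0.00539) and −2.36 ± 0.27 in SKOV-3 over T1074 (adjusted p = 2.52e-06).

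The imprinted host SNHG14 on chromosome 15, which spans the SNORD115 and SNORD116 clusters and runs antisense to UBE3A, averaged 115 ± 12.3 CPM in PEO-4, 71.4 ± 5.70 CPM in SKOV-3 and 118 ± 34.6 CPM in T1074 (SD, n = 4 each). SNHG15, host of SNORA9, averaged 17.5 ± 3.45, 5.82 ± 0.744 and 23.9 ± 14.4 CPM, and SNHG22, host of SCARNA17, 14.7 ± 2.22, 2.84 ± 0.682 and 13.4 ± 2.42 CPM in PEO-4, SKOV-3 and T1074. SNHG9 and SNHG31, hosts of SNORA78 and SNORA70I, were at most 1.25 CPM and 0.894 CPM in any library. SNHG31 passed barely in PEO-4 over SKOV-3 (log2 fold change 0.81 ± 0.35, edgeR adjusted p = 0.0496), and that call was lost in 13 of 21 alternatives. SNHG30, host of SNORD7, was the reverse of most hosts, at 2.43 ± 0.434 CPM in PEO-4, 6.65 ± 1.65 CPM in SKOV-3 and 3.53 ± 0.775 CPM in T1074. Its fall in PEO-4 against T1074 (−0.54 ± 0.22, adjusted p = 0.0373) was lost without PEO-4 replicate 1 (−0.35, adjusted p = 0.205), without any other PEO-4 library, and without T1074 replicate 3 or 4.

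SNHG1, first described as the U22 host gene and the host of SNORD22, SNORD25 to SNORD28 and SNORD30, passed in none of the 3 comparisons. It had 77.2, 76.6, 135 and 81.9 CPM in PEO-4, 71.6, 63.3, 68.5 and 71.2 CPM in SKOV-3, and 67.2, 42.1, 103 and 37.9 CPM in T1074. Every PEO-4 library was above every SKOV-3 library, T1074 overlapped with both, and replicate 3 was the highest library in both PEO-4 and T1074. The log2 fold change in PEO-4 over SKOV-3 was 0.43 ± 0.27 (edgeR adjusted p = 0.161), and it passed in a fit of the 8 libraries of the pair (0.44, adjusted p = 0.0286) and with scaling by protein-coding genes (0.65, adjusted p = 0.0492). The log2 fold change was 0.56 ± 0.27 in PEO-4 over T1074 (edgeR adjusted p = 0.0731), and without T1074 replicate 3 it passed (0.93, adjusted p = 0.00172), as it did without PEO-4 replicate 1, 2 or 4, with DESeq2 (0.64, adjusted p = 0.0331), with RLE size factors, without the filter on low counts and with a replicate block. SNHG3, host of SNORA73A and SNORA73B, also had its highest PEO-4 and T1074 levels in replicate 3, with 40.3 ± 9.28 CPM in PEO-4, 20.9 ± 1.26 CPM in SKOV-3 and 28.6 ± 16.2 CPM in T1074 (SD, n = 4 each), and passed in PEO-4 over T1074 without T1074 replicate 3 (0.96, adjusted p = 0.000563). In all, 8 of the 30 hosts had their highest level in replicate 3 of PEO-4 and also in replicate 3 of T1074: SNHG1, SNHG3, SNHG4, SNHG9, SNHG12, SNHG15, SNHG19 and SNHG30. The share of all genes with that pattern was not counted. SNHG21, host of SCARNA15, was at most 0.753 CPM in any library and passed in no comparison.

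Many host genes share their locus with other genes. On the opposite strand, 16 of them overlap a protein-coding gene, and 5 overlap one on the same strand. The kit keeps the strand, but the strand setting of the counting is not given in the sources used here, so for these genes reads of the partner may be included. The levels of 3 partners on the opposite strand are given as examples, and they do not stand for the other partners. ZNFX1, opposite ZFAS1, averaged 155 CPM in PEO-4, 89.5 CPM in SKOV-3 and 173 CPM in T1074. LRRC75A opposite SNHG29 averaged 6.64 CPM in PEO-4, 5.52 CPM in SKOV-3 and 15.0 CPM in T1074. PRSS12 opposite SNHG8 averaged 1.46, 7.86 and 7.96 CPM in the same order.

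Beyond overlapping genes, the protein-coding genes that start within 1 Mb of a host gene showed no such shift. For the 28 hosts with at least 5 tested neighbours, the neighbours' median log2 fold change in PEO-4 over T1074 had a median of −0.09, where the hosts themselves had 1.10. In this comparison 15 hosts were above the upper quartile of their own neighbours and 0 were below the lower one. In PEO-4 over SKOV-3, 20 hosts were above and 2 below. Around SNHG16 and SNHG20 on chromosome 17 the neighbours were also higher in PEO-4 than in T1074, with medians of 1.24 over 44 genes and 1.21 over 21 genes. Around SNHG6 the median was 0.75 over 14 genes, and around SNHG5, SNHG4 and ZFAS1 the medians were −0.18, −0.06 and 0.03. In PEO-4 over SKOV-3 the medians were 1.34 around SNHG16, 1.41 around SNHG20, 0.97 around SNHG32 and 0.78 around SNHG15. The median over the 28 hosts was −0.01 there. SNHG3 and SNHG12, and likewise SNHG11 and SNHG17, lie close together and share neighbours, so these values are a description with no test.

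**Figure D3:**
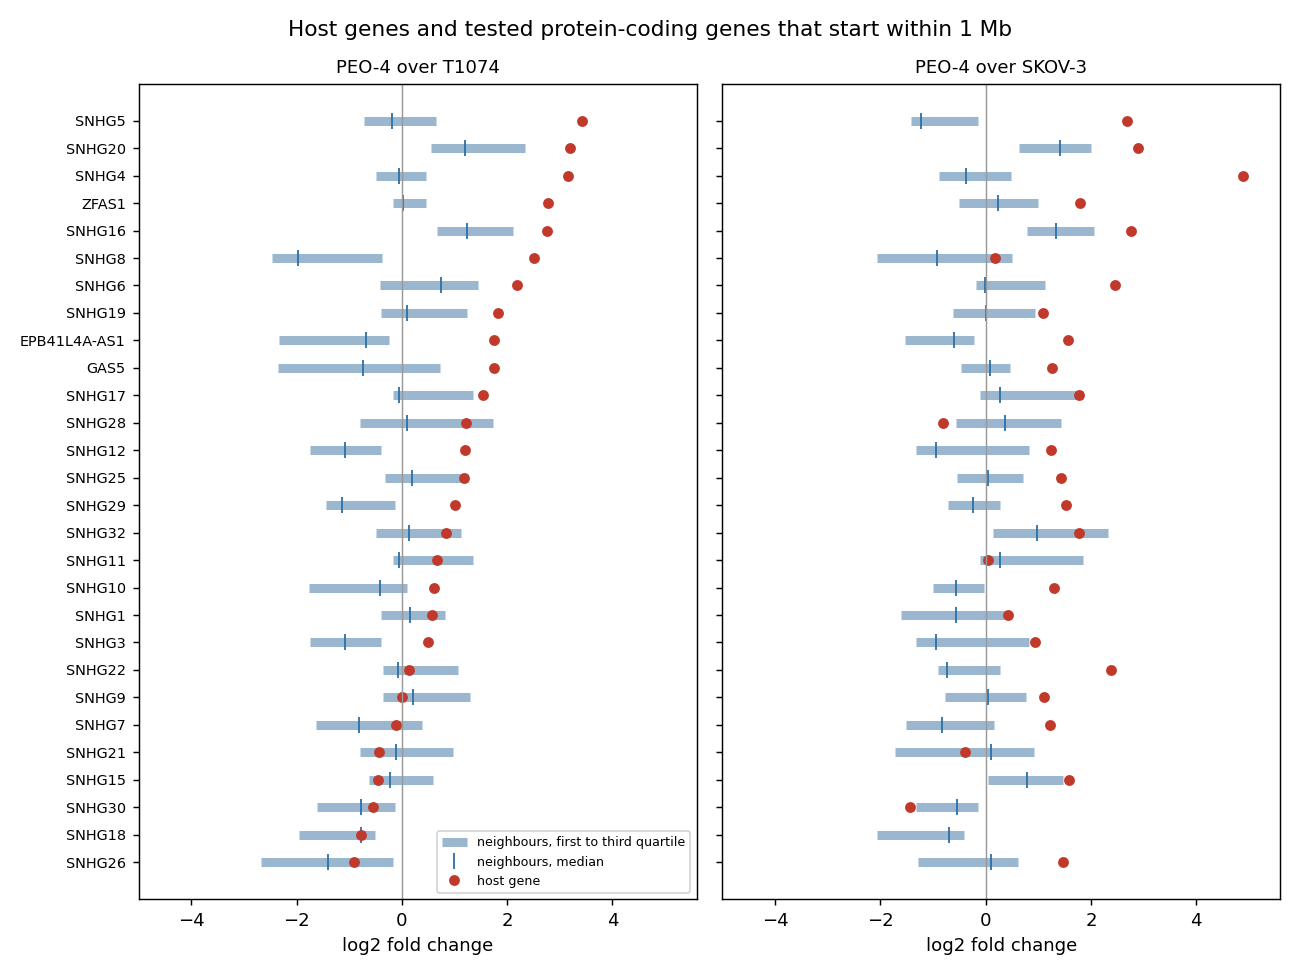
Log2 fold change of 28 host genes (points) and of the tested protein-coding genes that start within 1 Mb of each (bar from the lower to the upper quartile, tick at the median), in PEO-4 over T1074 and PEO-4 over SKOV-3. The neighbours centre near 0 while most points lie to their right; SNHG16 and SNHG20 have neighbours that are shifted the same way, and SNHG18, at 0 in SKOV-3, has no point in the second panel.

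The snoRNAs themselves were counted only in part. The annotation places 144 snoRNA and scaRNA genes within the hosts on the same strand, 84 of them in SNHG14. Only 43 had any count and 13, from 10 hosts, passed the filter. These were 126 to 275 bases long, and the mean fragment length of the libraries was 209.8 to 224 bases. Of the 26 box C/D genes outside SNHG14, which are mostly shorter, only SNORD22 was tested, and the other 12 tested were 10 SNORA and 2 SCARNA genes. The part of fragment length in this was not tested. The sequences of 5 are shown. SNORA73A, SNORA73B, SCARNA13 and SCARNA16 had the most counts of the 13, and SNORD22 was the only box C/D gene tested. The sequences are from hg38, and the capitals mark the ACA box near the 3′ end, or for SNORD22 the CTGA letters of the D box. A search for the exact letters of a C box found none in SNORD22.
SNORA73A (within SNHG3, chr1:28507366-28507571, + strand): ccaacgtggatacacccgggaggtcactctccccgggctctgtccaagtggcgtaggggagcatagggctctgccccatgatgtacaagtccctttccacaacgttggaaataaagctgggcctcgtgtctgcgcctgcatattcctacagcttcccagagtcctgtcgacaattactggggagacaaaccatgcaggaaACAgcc
SNORA73B (within SNHG3, chr1:28508559-28508762, + strand): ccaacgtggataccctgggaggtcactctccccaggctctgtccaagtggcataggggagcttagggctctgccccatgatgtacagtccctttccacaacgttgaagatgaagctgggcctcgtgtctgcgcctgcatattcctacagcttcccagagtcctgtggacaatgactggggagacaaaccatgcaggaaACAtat
SCARNA13 (within SNHG10, chr14:95533355-95533629, - strand): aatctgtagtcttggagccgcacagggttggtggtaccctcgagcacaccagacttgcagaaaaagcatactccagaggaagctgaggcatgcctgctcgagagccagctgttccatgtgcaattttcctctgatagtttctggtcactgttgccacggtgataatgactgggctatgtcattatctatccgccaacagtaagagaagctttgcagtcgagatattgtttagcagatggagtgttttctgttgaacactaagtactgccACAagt
SCARNA16 (within SNHG20, chr17:77089307-77089493, + strand): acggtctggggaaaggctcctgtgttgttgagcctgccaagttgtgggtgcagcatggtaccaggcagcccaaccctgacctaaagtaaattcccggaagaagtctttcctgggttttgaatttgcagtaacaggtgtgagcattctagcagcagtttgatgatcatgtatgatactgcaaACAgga
SNORD22 (within SNHG1, chr11:62852910-62853035, - strand): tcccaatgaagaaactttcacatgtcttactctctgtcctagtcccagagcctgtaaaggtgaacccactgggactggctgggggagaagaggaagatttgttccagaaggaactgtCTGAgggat
SNORA73A and SNORA73B, of 206 and 204 bases and both within SNHG3, differ by 14 edits, so reads may have been divided between these similar copies. Both are forms of the U17 RNA, which takes part in ribosomal RNA cleavage and not in its modification.

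All 13 tested snoRNAs and scaRNAs were higher in PEO-4 than in T1074 and also higher than in SKOV-3, beside 36.3% and 38.5% of all genes. Their median log2 fold change was 2.80 over T1074 and 3.30 over SKOV-3. In SKOV-3 over T1074 1 was higher and 2 were lower, beside 33.3% and 34.5% of all genes. A gene could meet the filter on low counts through PEO-4 alone, and being higher there was then nearly built in. SNORA50C, for example, had 75, 48, 18 and 25 counts across the PEO-4 libraries, while no other library exceeded 4. SNORA17B had 44, 23, 25 and 20, with at most 6 elsewhere. The shares of all genes are thus no fair measure for 13 of 13. SCARNA13, SNORA73A and SNORA73B had at least 530 counts in every library. SCARNA13, which guides modification of spliceosomal RNA, had 182, 122, 114 and 168 CPM in PEO-4, 48.8, 50.1, 27.4 and 40.1 CPM in SKOV-3, and 26.6, 22.1, 35.8 and 38.8 CPM in T1074. PEO-4 was clear of both lines, and the log2 fold change over T1074 was 2.25 ± 0.23 (edgeR adjusted p = 5.74e-07), where that of its host SNHG10 was 0.61. SNORA73A had 511, 187, 132 and 133 CPM in PEO-4, 44.1, 38.7, 39.3 and 49.2 CPM in SKOV-3, and 52.5, 37.3, 46.2 and 136 CPM in T1074. Here 1 library, PEO-4 replicate 1, was far above its line, and T1074 replicate 4 reached the lower PEO-4 libraries. The log2 fold change was 1.82 ± 0.45 in PEO-4 over T1074 (adjusted p = 0.00228), while its host SNHG3 did not pass in that comparison. Of the matched host transcripts, 2 of 12 of SNHG10 have an exon over SCARNA13 and 1 of 3 of SNHG3 have one over SNORA73A. RSEM may thus have divided reads between a snoRNA and its host, and the part of this in either level was not tested.

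SCARNA16, within SNHG20, had 40.6, 9.36, 4.43 and 8.69 CPM in PEO-4, at most 0.574 CPM in SKOV-3 and at most 1.72 CPM in T1074. SNORA74A, within SNHG4, had 16.7, 3.50, 1.16 and 2.72 CPM in PEO-4, at most 0.0585 CPM in SKOV-3 and at most 0.367 CPM in T1074. Both were higher in PEO-4 than in the other lines, as their hosts were. In SKOV-3 over T1074, SCARNA16 had a log2 fold change of −0.83 (edgeR adjusted p = 0.297), where SNHG20 had 0.30. Over the 13, the sign of the log2 fold change was that of the host in 11 for PEO-4 over T1074, in 10 for SKOV-3 over T1074 and in 13 for PEO-4 over SKOV-3. All 13 were higher in PEO-4 in both of its comparisons, in part through the filter. There the agreement only counts the snoRNAs whose host had a positive log2 fold change, and it is no measure of a link between the 2. PEO-4 replicate 1 held the highest of the 12 levels for 12 of the 13. Without that library, 13 were higher than in T1074 with a median log2 fold change of 2.52, and 12 were higher than in SKOV-3. With length-scaled counts, 8 of the 13 were higher than in T1074. Other short structured RNAs also differed between the lines. RN7SK, RMRP and RPPH1 took larger shares in PEO-4 than in both other lines without overlap, and the 7SL genes did not. RN7SK held 6.29% to 7.49% of the counts in PEO-4 libraries, 2.76% to 4.11% in SKOV-3 libraries and 2.16% to 3.38% in T1074 libraries. RMRP held 1.99% to 2.73% in PEO-4 libraries, 0.572% to 0.665% in SKOV-3 libraries and 0.675% to 1.26% in T1074 libraries. RPPH1 held 3.21% to 4.90% in PEO-4 libraries, 0.683% to 1.00% in SKOV-3 libraries and 0.936% to 1.48% in T1074 libraries. The 7SL genes, which encode the RNA of the signal recognition particle, held 12.99% to 14.2% in PEO-4 libraries, 15.7% to 19.5% in SKOV-3 libraries and 7.48% to 16.1% in T1074 libraries. Their part in the snoRNA values was not tested.

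**Figure D4:**
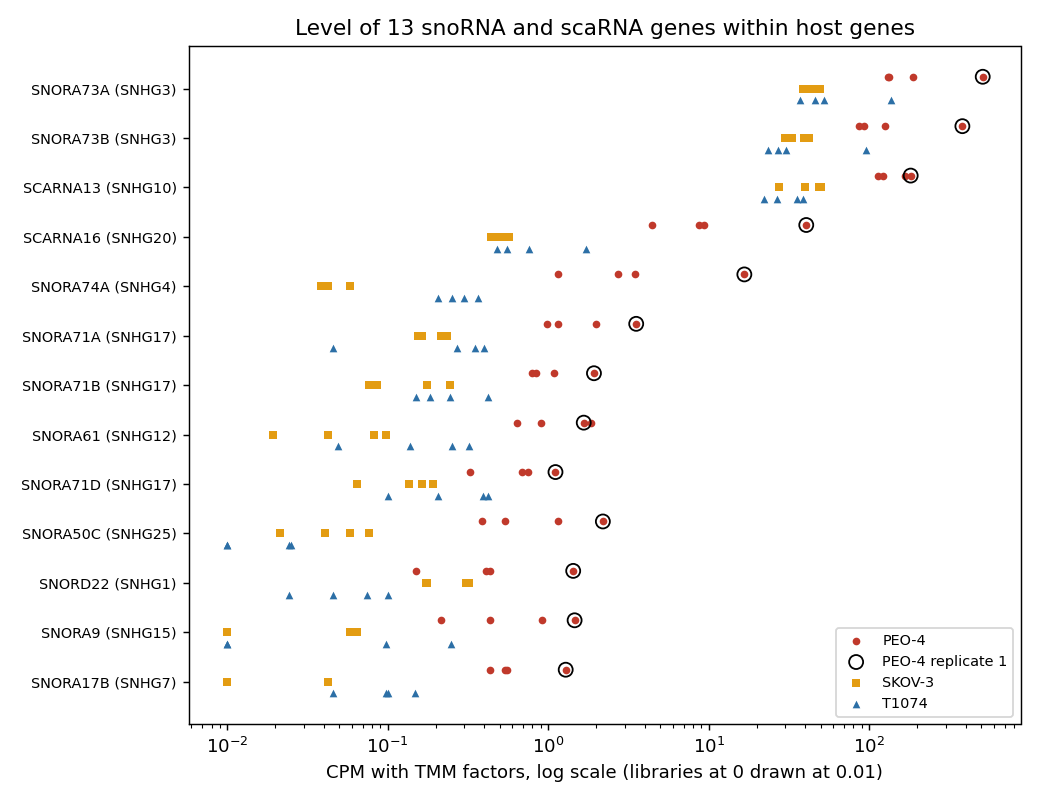
Level of the 13 tested snoRNA and scaRNA genes within host genes (host in brackets) in each library, in CPM with TMM factors on a log axis, ordered by total count. All PEO-4 libraries lie to the right of the 8 others in 8 rows, and PEO-4 replicate 1, circled, is the highest library for 12 of the 13.

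At transcript level the hosts are complex, with 892 annotated transcripts, of which 373 were tested. Against T1074, 139 were higher in PEO-4 and 22 lower, where 21.6% and 20.3% of all tested transcripts were (41.9% in either direction). In SKOV-3 over T1074, 32 were higher and 65 lower (18.9% and 17.3% of all, 36.2% together), and in PEO-4 over SKOV-3, 158 were higher and 13 lower (22.9% and 22.1% of all, 45.0% together). Transcripts of 1 gene share exons and RSEM divides their reads by estimate, so values of single transcripts are less certain than those of genes. GAS5 had transcripts called in both directions in both comparisons with T1074. Its leading transcript ENST00000689238.1, of 12 exons, averaged 85.2 CPM in PEO-4, 75.3 CPM in SKOV-3 and 12.03 CPM in T1074, and it did not pass between the carcinoma lines (log2 fold change 0.18 in PEO-4 over SKOV-3, edgeR adjusted p = 0.585). The transcript ENST00000687189.1, also of 12 exons, averaged 65.6 CPM in PEO-4, 6.12 CPM in SKOV-3 and 1.61 CPM in T1074, a log2 fold change of 3.42 in PEO-4 over SKOV-3 (adjusted p = 0.00344). In SNHG1 the transcript ENST00000686500.1 was lower in PEO-4, at 1.74 CPM in PEO-4, 2.35 CPM in SKOV-3 and 10.3 CPM in T1074, and ENST00000658540.1 was higher, at 11.4 CPM in PEO-4, 14.1 CPM in SKOV-3 and 3.73 CPM in T1074.

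Of the SNHG5 transcripts, 17 were higher and 2 lower in PEO-4 over T1074, and 12 were higher and 3 lower in PEO-4 over SKOV-3. The 3 leading ones were among the higher, with log2 fold changes of 4.04, 3.99 and 4.37 in PEO-4 over T1074. In SNHG16, ENST00000661348.2 averaged 338 CPM in PEO-4, 23.6 CPM in SKOV-3 and 22.2 CPM in T1074, a log2 fold change of 3.93 over T1074, where ENST00000670737.2 had 2.10. In SNHG8, ENST00000689575.1 was higher in SKOV-3 than in PEO-4, at 4.35 CPM in PEO-4, 14.3 CPM in SKOV-3 and 0.703 CPM in T1074. The gene totals of SNHG8 in PEO-4 and SKOV-3 were thus made up differently.

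Transcripts annotated with a retained intron number 73 in 14 hosts, and 42 were tested. A retained intron may keep the snoRNA within the unspliced transcript. Of these 42, 14 were higher and 3 lower in PEO-4 over T1074, beside 21.6% and 20.3% of all tested transcripts. Their share of a gene's counts was largest in SNHG3, at 70.9% to 77.0% in the PEO-4 libraries, 68.5% to 72.5% in the SKOV-3 libraries and 66.4% to 79.7% in the T1074 libraries, so the lines overlapped. In SNHG12 it was 64.8% to 75.8% in the PEO-4 libraries, 33.7% to 44.7% in the SKOV-3 libraries and 49.9% to 63.2% in the T1074 libraries, so the lines did not overlap. In SNHG14 the order was another, with 25.9% to 30.3% in PEO-4 libraries, 38.9% to 40.5% in SKOV-3 libraries and 14.0% to 19.9% in T1074 libraries. In GAS5 it was 22.2% to 33.2%, 14.1% to 19.1% and 24.8% to 42.3% in PEO-4, SKOV-3 and T1074.

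**Figure D5:**
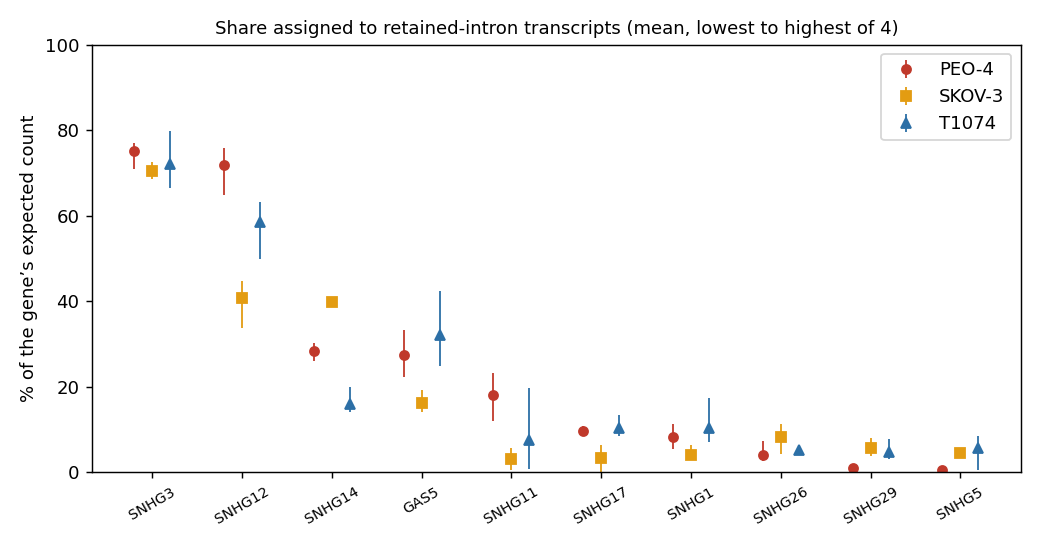
Share of each host gene's expected count that was assigned to transcripts annotated with a retained intron, for the 10 hosts where a line's mean reached 5%; marks are means of 4 libraries and bars run from the lowest to the highest library. SNHG12 and SNHG14 have 3 lines that do not overlap, in different orders, while in SNHG3 the lines overlap.

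The lists in the rest of the text were chosen with earlier results of these data known. The lists differed in their direction. Of all genes, 36.3% were higher and 37.8% lower in PEO-4 over T1074. The shares were 33.3% and 34.5% in SKOV-3 over T1074, and 38.5% and 36.7% in PEO-4 over SKOV-3. Of 177 tested protein-coding genes that carry snoRNAs in their introns, 80 were higher and 59 lower in PEO-4 over T1074, with a median log2 fold change of 0.17. In SKOV-3 over T1074, 72 were higher and 59 lower, and in PEO-4 over SKOV-3, 69 were higher and 58 lower. Among the 4 core proteins of box C/D snoRNPs, NOP58 and the methyltransferase FBL were higher in PEO-4 than in T1074 (log2 fold change 1.20 and 0.74), and NOP56 and SNU13 were lower (−0.37 and −1.19). Among the 4 of box H/ACA snoRNPs, the pseudouridine synthase DKC1 and NHP2 were higher (0.89 and 0.73), NOP10 was lower (−0.86) and GAR1 did not pass (−0.21). Of 10 assembly factors 3 were higher and 4 lower, RPAP3 with −1.17 and NOPCHAP1 with 1.19.

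Of 17 genes for intron debranching, trimming and decay of snoRNA precursors, 12 were lower and 2 higher in PEO-4 over T1074. Of all genes 37.8% were lower and 36.3% higher. The median log2 fold change of the 17 was −0.67. The exosome subunits EXOSC9 and EXOSC8 had −2.25 and −1.75, the debranching enzyme DBR1 −1.04, and the subunit EXOSC4 was higher with 1.59. In SKOV-3 over T1074, 9 were lower and 3 higher, beside 34.5% and 33.3% of all genes. Of 17 nonsense-mediated decay factors 5 were higher and 6 lower in PEO-4 over T1074, with SMG6, the endonuclease of the pathway, at −2.05 and EIF4A3, a core exon junction protein, at 1.26. The 15 genes of mTORC1 and TOP regulation split into 4 higher and 7 lower, with RPTOR at 1.92 and TSC1 at −1.63.

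Most TOP mRNAs of translation factors were higher in the carcinoma lines than in T1074. Of 16, 12 were higher and 4 did not pass in PEO-4 over T1074, beside 36.3% of all genes higher, with a median log2 fold change of 1.04 where that of all genes was −0.01, and 15 were higher in SKOV-3 over T1074, beside 33.3% of all genes, with a median of 0.63. The exception, HNRNPA1, was lower in SKOV-3 than in T1074 (log2 fold change −0.38). PABPC1, the poly(A) binding protein, had 3.61 in PEO-4 over T1074, 1.16 in SKOV-3 over T1074 and 2.46 in PEO-4 over SKOV-3. The eIF3 subunits EIF3E and EIF3H had 2.92 and 2.74 in PEO-4 over T1074. Both genes lie on chromosome 8, and the part of position in their values was not tested. In PEO-4 over SKOV-3, 9 TOP mRNAs were higher and 4 lower, beside 38.5% and 36.7% of all genes. The lower ones included TPT1, the translationally controlled tumour protein (−0.97), and the elongation factor EEF2 (−0.46).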

How the data were processed

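RNA of 12 libraries, 4 of each line, was depleted of ribosomal RNA, prepared with a directional kit and sequenced in paired-end mode. Per the labels and the study's methods, the authors trimmed reads with Trimmomatic 0.39, aligned them to hg38 with STAR 2.7.3a and estimated transcript levels with RSEM 1.3.1 on GENCODE 39. The deposited files give for each transcript an expected count, which need not be whole, and a TPM value. The authors' TPM is scaled within each library by effective length, so an excess of short RNAs lowers every other gene, and it was used only to order genes within the libraries. The deposited labels give the molecule as protein, while the files and protocols are of RNA.

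Expected counts were summed by gene ID over 244939 transcripts and 61533 genes and rounded to whole numbers. Names and hg38 positions were taken from GENCODE 44, which matched 61369 gene IDs and 840 of the 892 host transcripts. Genes were kept by edgeR's filter on low counts by line (19898 genes, and 76043 transcripts in a separate fit), scaled by TMM, and tested in 1 edgeR 4.0.16 quasi-likelihood fit of all 12 libraries with the line as factor (R 4.3.3). P-values were adjusted by Benjamini-Hochberg over all features tested. The fit was tested on simulated counts with known changes. CPM values were not log-transformed and have no pseudocount.

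The genes, gene lists and comparisons were chosen with earlier results of these data known. Values in every library are given for the 10 hosts with the highest mean TPM and the 3 with the largest absolute log2 fold change in each comparison, 14 hosts in all. Transcripts are named where they held at least 10% of a host's mean TPM, and up to 3 genes of each list by absolute log2 fold change. SCARNA13, SNORA73A, DBR1, TPT1, EEF2, HNRNPA1, the core snoRNP proteins and the overlapping genes were chosen after their values were seen. The alternatives were DESeq2 1.42.0, other size factors, other filters, length-scaled counts, only the 8 libraries of a pair, a replicate block, stricter thresholds and each library left out. Replicate numbers come from the titles. Deviations of same-numbered libraries from their line means correlated between −0.079 and 0.069, so the numbers were not taken to pair the libraries. Replicates of a line differed by more than sampling noise, and none was merged. Counts estimated for transcripts of 1 gene, for overlapping genes and for near-identical copies are uncertain, since RSEM divides shared reads. The strand setting of the counting is not given in the sources used here. A floor of 3 counts per library was used for genes at 0, and it covers counting error only. One overlapping gene and the sequence of one snoRNA are not reported here.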

Additional observations from a re-analysis of the deposited data

Results flagged for a closer look

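A library far from the other 3 of its line (by Dixon's test) was found in 7 of 89 groups of 4 libraries examined, where chance flags about 1 in 20 groups. SNHG1 was at 135 CPM in PEO-4 replicate 3, with 76.6 to 81.9 CPM in the others, and SNHG4 was at 34.4 CPM in the same library, with 27.1 to 27.3 CPM in the others. In SKOV-3, SNHG9 was at 0.749 CPM in replicate 3, with 0.288 to 0.312 CPM in the others. SNHG12 was at 14.8 CPM in SKOV-3 replicate 4, with 11.7 to 12.01 CPM in the others, and SNHG31 was at 0.156 CPM in SKOV-3 replicate 1, with 0.250 to 0.266 CPM in the others. In T1074, SNHG16 was at 112 CPM in replicate 3, with 102 to 104 CPM in the others, and GAS5 was at 118 CPM in replicate 1, with 86.1 to 90.5 CPM in the others.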

How the results depend on the processing

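No host gene that passed the test changed direction under any of the 21 alternatives, and most calls kept their side of the threshold: 599 of the values in PEO-4 over T1074, 600 in SKOV-3 over T1074 and 608 in PEO-4 over SKOV-3, with 21, 23 and 18 calls lost and 10, 7 and 4 gained. With each library left out in turn, 17 to 19 host genes were higher and 2 to 3 lower in PEO-4 over T1074, 7 to 9 and 10 to 13 in SKOV-3 over T1074, and 23 to 24 and 1 to 2 in PEO-4 over SKOV-3. In the last, the count of 1 came without PEO-4 replicate 2, without PEO-4 replicate 4 and without SKOV-3 replicate 3, each time by losing SNHG28. Scaling by library size alone moved the median of all genes to −0.17 in PEO-4 over T1074 and −0.23 in SKOV-3 over T1074, with host medians of 0.76 and −0.43. Scaling by the sum of protein-coding genes moved it to −0.23 in SKOV-3 over T1074 and 0.26 in PEO-4 over SKOV-3, with host medians of −0.45 and 1.58. The cause of each change was not tested, except that a stricter rule calls fewer genes by its construction.

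Where a call also needed a log2 change of size 1 or more, 0 host genes were lower in PEO-4 over T1074 (edgeR calls 3 without it), 2 were higher in SKOV-3 over T1074 and 1 was lower in PEO-4 over SKOV-3. By the same rule 5 TOP mRNAs were higher and 0 lower in SKOV-3 over T1074, 5 were higher and 0 lower in PEO-4 over SKOV-3, and protein-coding hosts counted 42 higher and 28 lower in PEO-4 over T1074, 12 and 17 in SKOV-3 over T1074, and 38 and 26 in PEO-4 over SKOV-3. Of all genes, 25.2% were higher by that rule in PEO-4 over T1074, 19.6% in SKOV-3 over T1074 and 27.3% in PEO-4 over SKOV-3. With an adjusted p under 0.01, 56 host transcripts were called in SKOV-3 over T1074 (97 at 0.05), 1 host gene was lower in PEO-4 over SKOV-3, 0 snoRNAs were higher and 0 lower in SKOV-3 over T1074, 0 TOP mRNAs were lower in that comparison, and 5 were higher and 2 lower in PEO-4 over SKOV-3. The shares of all features at 0.01 and under the settings below are not set beside these counts. The counts show only how calls depend on the rule. With the protein-coding sum, 1 host gene was lower in PEO-4 over SKOV-3, 4 snoRNAs were lower in SKOV-3 over T1074 and 2 TOP mRNAs were lower in PEO-4 over SKOV-3. With length-scaled counts, 8 snoRNAs were higher in PEO-4 over T1074, and 0 were higher and 1 lower in SKOV-3 over T1074. In that comparison, snoRNAs counted 0 higher and 1 lower in a fit of the 8 libraries, 2 higher without the filter, 1 lower with RLE factors and 4 lower by library size, and 0 TOP mRNAs were lower without the filter. Leaving out libraries gave 0 to 2 snoRNAs higher and 1 to 3 lower in SKOV-3 over T1074, 0 to 1 TOP mRNAs lower there, and 2 to 4 lower in PEO-4 over SKOV-3.

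The replicate numbers do not pair the libraries. With the replicate block, 18 host genes were higher and 3 lower in PEO-4 over T1074, 8 and 11 in SKOV-3 over T1074, and 23 and 2 in PEO-4 over SKOV-3, and 138, 79 and 152 host transcripts were called in the 3 comparisons. The shares of all features in that fit are not set beside these counts. Between the 2 fits SNHG1 was gained in PEO-4 over T1074, SNHG10 was lost in both comparisons with T1074, and SNHG31 was lost in PEO-4 over SKOV-3. Counts were low, and precision with them, for the rarest hosts, SNHG9, SNHG21, SNHG25, SNHG27, SNHG28 and SNHG31. Most of the snoRNA genes had no count, and the part of depth in that was not tested.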
